A study of Mus musculus with 6 samples.

Results

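The T cell receptor locus genes are the constant, variable, joining and diversity segments from which the alpha, beta, gamma and delta chains of the T cell antigen receptor are built. Members were taken by gene symbol, for a set chosen with earlier results of these data known. Of the 20076 genes in the deposited table, 39 matched: 7 constant genes and 32 variable genes. No joining or diversity segment was among them, and those segments were not analysed here. The data were bulk polyA-enriched RNA sequencing of 6 primary ovarian tumors, 3 from wild-type (WT) and 3 from Tgm2 knockout (Tgm2-/-) C57BL/6 mice, and the comparison asked how the tumor transcriptome differed when the host lacked transglutaminase 2 (TG2). Mice were 6 to 10 weeks old and received bilateral injections of ID8 Trp53-/- Brca1-/- cells, an ovarian cancer line of C57BL/6 origin that lacks Trp53 and Brca1, into the bursa around the ovary, and tumors were collected 6 weeks later. The injected cells did not differ between genotypes, so the knockout was confined to the host, and Tgm2 itself remained measurable: WT tumors 1 to 3 held 14978, 12155 and 13180 normalized counts, against 5853, 6071 and 8157 in Tgm2 knockout tumors 1 to 3. Every knockout tumor thus lay below every WT tumor for the deleted gene (log2 fold change -1.02, standard error 0.22, adjusted p = 0.391 from limma). The labels number the tumors without tying each to a separate mouse, so p-values measure the spread between these tumors.

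T cells assemble their receptor genes by joining a variable segment to joining segments, and to a diversity segment in the beta and delta chains, and then splice the assembled exon to a constant gene. The constant genes therefore report how much receptor RNA of a chain is present, whereas the variable genes report which segments the T cells in the sample had joined. Conventional CD4+ and CD8+ T cells carry an alpha beta receptor, gamma delta T cells carry a gamma delta receptor, and either receptor reaches the cell surface only together with the CD3 subunits. Values are normalized counts, that is estimated reads per gene corrected by the authors for sequencing depth, and 1 read was worth 0.943 to 1.09 normalized counts in the 6 tumors, which held an estimated 33.3M to 36.9M reads each. In bulk tumors, fewer T cells and less receptor RNA per T cell cannot be told apart.

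Several of these genes are near-copies of one another, which limits how surely reads can be assigned to them. The beta constant genes Trbc1 (chromosome 6 of GRCm38, 41538218 to 41539881, plus strand) and Trbc2 (41546730 to 41548352, plus strand) had a coding identity of 95.56%, and their first exons of 375 bases differed at 1 position. Of the 31-base words in their transcripts, 321 of the 717 in Trbc1 and 321 of the 662 in Trbc2 were shared, so their reads are told apart mainly by the coding bases after exon 1 and by the 3′ ends. Coding bases 376 to 518 of each are shown because they hold 22 of the 23 coding differences. The sequences are those of GENCODE M21 on GRCm38, written 5′ to 3′, and capitals mark the positions that differ between the genes.
Trbc1: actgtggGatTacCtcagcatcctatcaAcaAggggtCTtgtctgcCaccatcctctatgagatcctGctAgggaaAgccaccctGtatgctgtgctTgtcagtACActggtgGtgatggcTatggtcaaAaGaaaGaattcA
Trbc2: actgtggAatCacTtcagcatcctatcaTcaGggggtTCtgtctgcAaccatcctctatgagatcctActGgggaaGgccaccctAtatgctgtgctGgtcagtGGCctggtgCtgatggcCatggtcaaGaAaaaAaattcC
The gamma constant genes on chromosome 13, Trgc1 (19214103 to 19217024, plus strand), Trgc2 (19304649 to 19307551, minus strand) and Trgc4 (19344558 to 19352756, plus strand), are listed in the reference annotation as Tcrg-C1, Tcrg-C2 and Tcrg-C4. Trgc1 and Trgc2 had a coding identity of 97.4%, while Trgc4 matched Trgc1 at 77.28% and Trgc2 at 76.8%. The first 120 bases of exon 1 show this layout, with capitals at the 15 positions where the 3 genes are not all alike.
Trgc1: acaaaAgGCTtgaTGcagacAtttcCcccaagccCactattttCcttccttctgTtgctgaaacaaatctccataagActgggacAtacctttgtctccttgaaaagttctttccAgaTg
Trgc2: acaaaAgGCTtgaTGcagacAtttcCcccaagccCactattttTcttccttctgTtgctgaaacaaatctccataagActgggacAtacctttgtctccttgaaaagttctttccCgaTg
Trgc4: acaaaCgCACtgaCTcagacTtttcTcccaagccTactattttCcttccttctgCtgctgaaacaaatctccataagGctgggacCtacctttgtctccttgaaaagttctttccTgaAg
Trgc4 shared no 31-base word with another annotated T cell receptor gene, whereas Trgc1 shared 433 of 894 and Trgc2 shared 406 of 884.

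Each of the 7 constant genes had a higher mean in Tgm2 knockout tumors than in WT tumors, and in each of the 7 the groups overlapped. Trac, the single constant gene of the alpha chain (chromosome 14, 54220521 to 54224206, plus strand), had 461, 291 and 195 normalized counts in WT tumors 1 to 3, against 460, 377 and 689 in knockout tumors 1 to 3. Knockout tumor 3 was the highest, while WT tumor 1 and knockout tumor 1 were nearly equal. The log2 fold change of Trac was 0.73 with a standard error of 0.39 (adjusted p = 0.889 from limma). Trbc2 had 267, 177 and 187 normalized counts in the WT tumors, against 232, 357 and 508 in the knockout tumors (log2 fold change 0.75, standard error 0.38, adjusted p = 0.887 from limma). Trbc1 had 134, 74.2 and 73.9 in the WT tumors, against 132, 177 and 261 in the knockout tumors, a log2 fold change of 1.01 with a standard error of 0.45 (unadjusted p = 0.0531, adjusted p = 0.874, both from limma). In both beta constant genes, knockout tumors 2 and 3 were above all other tumors and knockout tumor 1 was below WT tumor 1. Trbc1 made up 33.4%, 29.5% and 28.3% of the beta constant counts in the WT tumors, against 36.3%, 33.2% and 33.9% in the knockout tumors, so that the balance between the genes overlapped as well.

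**Figure D1:**
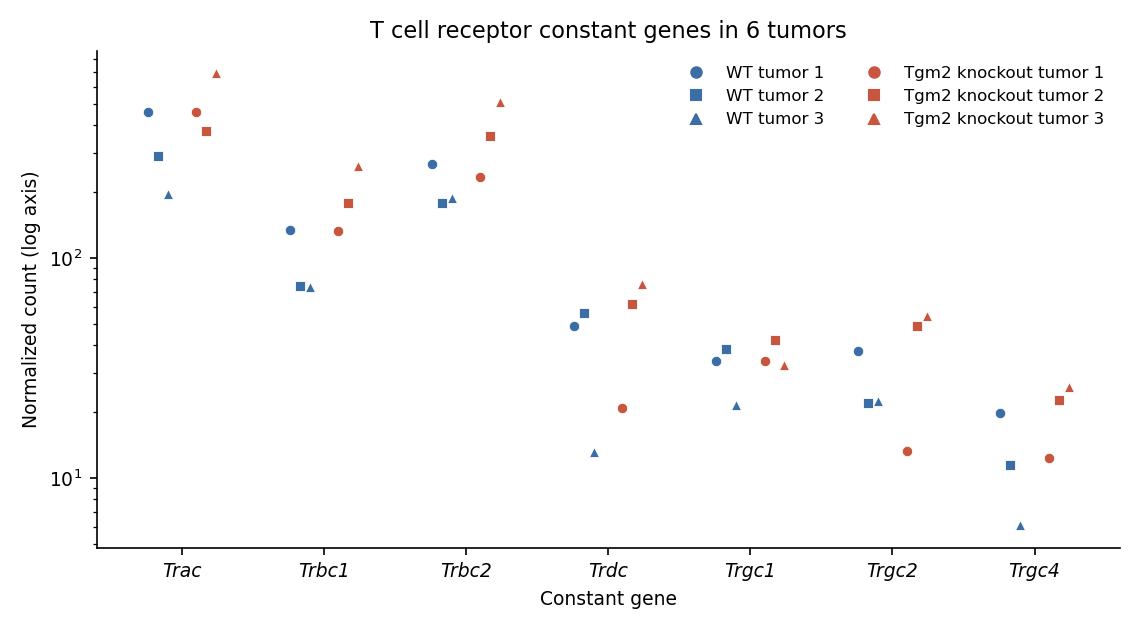
Normalized counts (log axis) of the 7 T cell receptor constant genes in each tumor, with WT tumors in blue and Tgm2 knockout tumors in red. Knockout tumor 3 held the highest value of every gene except Trgc1, and the groups overlapped for each of the 7 genes.

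The gamma and delta constant genes had lower counts than those of the alpha and beta chains. Trdc, the delta constant gene (chromosome 14, 54142851 to 54148868, plus strand), had 49.2, 56.3 and 13.2 normalized counts in WT tumors 1 to 3, against 20.9, 61.8 and 76.3 in knockout tumors 1 to 3. The lowest value was in a WT tumor and the next lowest in a knockout tumor, and the log2 fold change of 0.46 was smaller than its standard error of 0.77 (adjusted p = 0.944 from limma). Trgc1, used by T cells that join its own upstream cluster of variable segments, had 33.9, 38.4 and 21.3 in the WT tumors, against 34.0, 42.2 and 32.6 in the knockout tumors (log2 fold change 0.24, standard error 0.55). Trgc2 had 37.7, 21.8 and 22.4 against 13.2, 49.1 and 54.3 (log2 fold change 0.31, standard error 0.70), and knockout tumor 1 was here the lowest of all tumors. Trgc4, the gamma constant gene with no shared words, had 19.8, 11.4 and 6.09 against 12.3, 22.6 and 26.0 (log2 fold change 0.74, standard error 0.70). The direction of Trdc, Trgc1 and Trgc2 rested on single tumors: without WT tumor 3 the log2 fold changes of Trdc and Trgc1 were -0.18 and -0.0035, and without knockout tumor 3 that of Trgc2 was -0.039. With a covariate for white adipocyte markers, the log2 fold changes of Trdc, Trgc1, Trgc2 and Trgc4 were -1.69, -0.30, -1.27 and -0.25. Their standard errors in that fit were 1.26, 1.05, 1.24 and 1.32.

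Summed by chain, the constant genes had means of 316 ± 134 (alpha), 305 ± 83.9 (beta), 71.0 ± 20.8 (gamma) and 39.6 ± 23.1 (delta) normalized counts in WT tumors (SD, n = 3). In Tgm2 knockout tumors the means were 509 ± 162, 556 ± 203, 95.4 ± 31.1 and 53.0 ± 28.8 (SD, n = 3). The log2 ratios of the means were 0.69, 0.87, 0.43 and 0.42 in the same order, and in each chain the sums of the groups overlapped. With 1 tumor left out at a time, the alpha and beta ratios ranged from 0.41 and 0.56 (without knockout tumor 3) to 1.06 and 1.12 (without WT tumor 1), and the gamma and delta ratios from 0.23 and 0.0062 (without WT tumor 3) to 0.68 and 0.80 (without knockout tumor 1). Gamma and delta constant genes together took 14.0%, 19.1% and 12.1% of the constant counts in the WT tumors, against 8.88%, 16.2% and 11.5% in the knockout tumors, again with overlap. Chains can be compared in level only per length. Per kilobase of exon, the beta constant genes had 565, 355 and 369 normalized counts in the WT tumors, against 511, 753 and 1083 in the knockout tumors, and Trac had 493, 312 and 209 against 492, 403 and 737. On the same scale the gamma constant genes had 98.1, 77.0 and 53.7 against 63.7, 122 and 121, and Trdc, whose transcript is long, had 12.7, 14.6 and 3.41 against 5.40, 16.0 and 19.7. In every tumor the order per kilobase was beta, alpha, gamma and delta, with Trac taken at 935 bases of exon. A Trac transcript of 413 bases is also annotated. A shorter length would raise Trac per kilobase, so the order of beta and alpha depends on the length used.

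**Figure D2:**
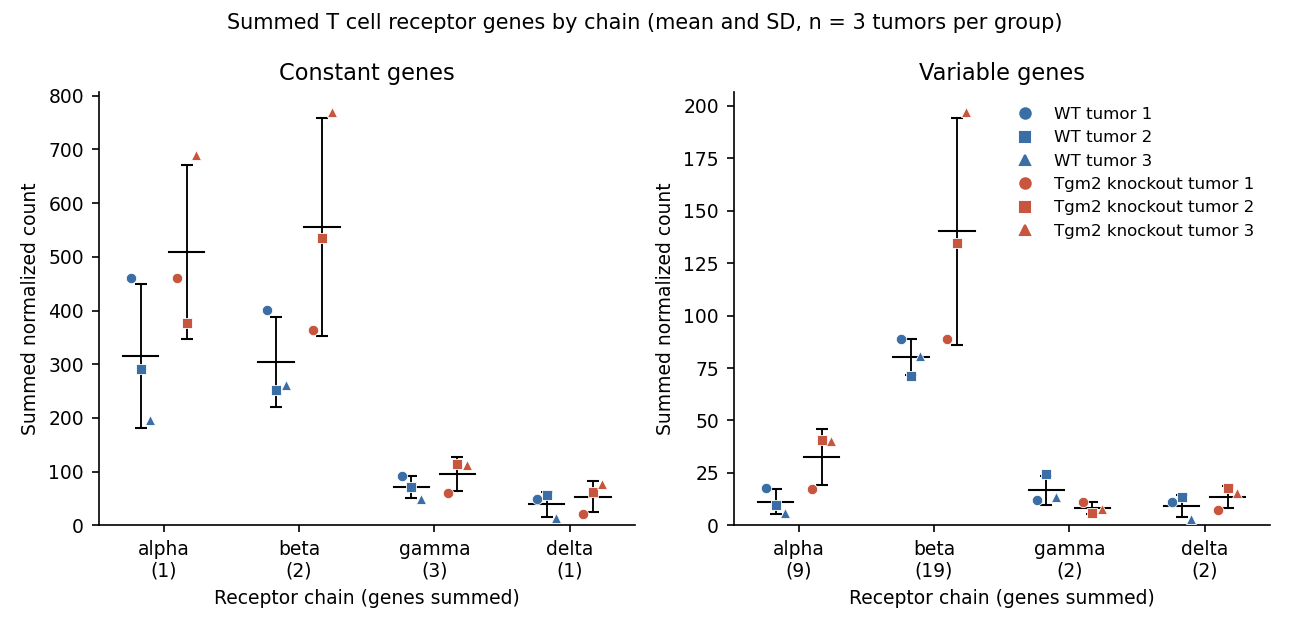
Summed normalized counts of the constant genes (left) and variable genes (right) of each receptor chain in each tumor, with the number of genes summed in parentheses and with the mean and SD of 3 tumors per group. The constant sums of WT and Tgm2 knockout tumors overlapped in every chain. In the beta variable sum WT tumor 1 and knockout tumor 1 were level (94 reads each), and the gamma variable sums, of 6 to 24 reads, were lower in the knockout tumors.

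The receptor constant genes were set against the CD3 complex, the subunits Cd3d, Cd3e, Cd3g and Cd247 that assemble with either receptor. The CD3 genes summed to 668, 474 and 456 normalized counts in the WT tumors, against 658, 871 and 1329 in the knockout tumors, and all 7 constant genes summed to 1003, 671 and 519 against 905, 1087 and 1648. Both sums were highest in knockout tumor 3, followed by knockout tumor 2 and WT tumor 1. The ratio of receptor constant genes to CD3 genes was 1.50, 1.42 and 1.14 in the WT tumors, against 1.37, 1.25 and 1.24 in the knockout tumors. Relative to the CD3 sum, the log2 ratio of knockout to WT was -0.07 for the alpha and 0.03 for the beta constant genes, and -0.38 and -0.47 for the gamma and delta constant genes. The ratio of the gamma and delta constant sum to the CD3 sum was 0.211, 0.270 and 0.138 in the WT tumors, against 0.122, 0.202 and 0.142 in the knockout tumors, and the groups overlapped. All 39 receptor genes together made up 0.00325%, 0.00224% and 0.00184% of all normalized counts in the WT tumors, against 0.00319%, 0.00359% and 0.00506% in the knockout tumors.

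**Figure D3:**
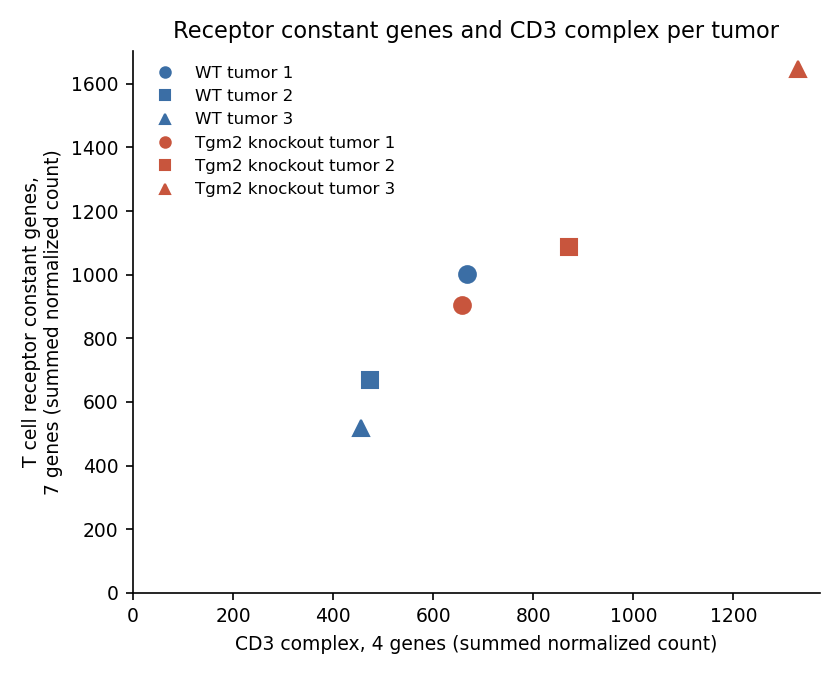
Summed normalized counts of the 7 receptor constant genes (vertical axis) against the 4 CD3 complex genes (horizontal axis) in each tumor. WT tumor 1 and Tgm2 knockout tumor 1 lay side by side, and knockout tumor 3 was highest on both axes, at 1329 and 1648.

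Across the whole table, 19667 genes reached a value of 1 in 3 or more tumors and were tested with limma, and 38 of the 39 receptor genes were among them. At an adjusted p below 0.05 and an absolute log2 fold change above 1, 0 receptor genes were called in either direction, where 20 genes of the table (0.102%) were called higher and 0 (0.0%) lower in knockout tumors. The lowest adjusted p of a receptor gene was 0.781 from limma. With the same fold limit and an unadjusted p below 0.05, 2 receptor genes were called higher and 0 lower, beside 491 genes (2.5%) higher and 305 (1.55%) lower in the table. Those 2, Trav14d-1 and Trav14n-1, are identical copies with identical values and so hold 1 measurement. The groups did not overlap for 4 tested receptor genes, each higher in knockout tumors, and for 0 that were lower, beside 1019 genes (5.18%) higher and 1048 (5.33%) lower in the table. These 4 were Trav14d-1 and Trav14n-1, which are 1 measurement, Trav6-3, which passed the filter through the knockout tumors alone and so had to differ, and Trbv17, which is at about 1 read in 3 of the tumors, so the count gives no support for a difference. The log2 fold change was above 0 in 33 of the 38 receptor genes and below 0 in 5. Over all genes tested it was above 0 in 9309 and below 0 in 10358. The 33 include 3 couples with identical values, so they hold fewer separate measurements. The median log2 fold change of the receptor genes was 0.74, beside -0.03 over all genes tested. With a covariate for white adipocyte markers this median was 0.15, and the count at the unadjusted p was 0. Leaving out 1 tumor at a time gave medians from 0.44, without WT tumor 3, to 1.04, without knockout tumor 1.

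**Figure D4:**
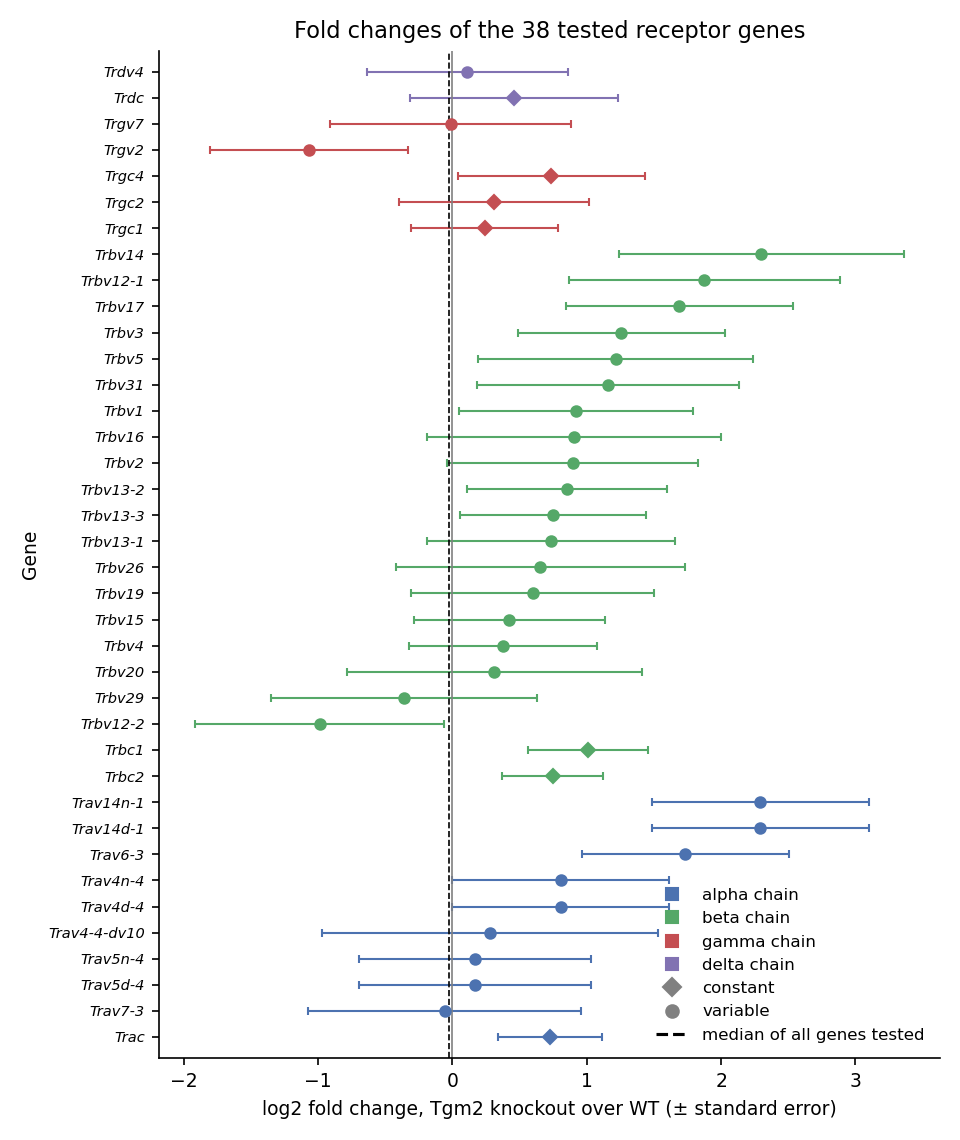
Log2 fold change (Tgm2 knockout over WT) with its standard error for the 38 tested receptor genes, colored by chain, with diamonds for constant and circles for variable genes and a dashed line at the median of all genes tested (-0.03). Of the 38 genes, 33 lay above 0, and the values ranged from -1.06 (Trgv2) to 2.30 (Trbv14).

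The variable genes were each represented by few reads, with means over the 6 tumors from 1.62 to 11.0 normalized counts and a highest single value of 30.2. Of the 32, 21 were listed at 0 in at least 1 tumor, and 11 were above 0 in all 6. A single variable gene can therefore differ severalfold between tumors by a handful of reads, and the sums by chain are the firmer measure. The annotation of the reference holds 22 beta variable genes that are not pseudogenes, of which 19 were in the table, against 9 of 108 for the alpha chain, so the alpha sum covers a small part of its locus. These 19 beta variable genes lie on chromosome 6 between Trbv1, which starts at 40891229, and Trbv31, which ends at 41558452.

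The 19 beta variable genes summed to 88.8, 71.2 and 80.7 normalized counts in the WT tumors, against 89.0, 134 and 197 in the knockout tumors. In reads these sums came to 94, 69 and 79 against 94, 137 and 181, with exact Poisson 95% intervals, which cover counting error only, of 76.0 to 115 for WT tumor 1 and the same for knockout tumor 1. WT tumor 1 and knockout tumor 1 were thus level in reads, whereas knockout tumor 3 (155.6 to 209.4 reads) was beyond the intervals of all WT tumors. The log2 ratio of the means was 0.80, and 0.48 without knockout tumor 3. The ratio of the beta variable sum to the beta constant sum was 22.1%, 28.4% and 30.9% in the WT tumors, against 24.5%, 25.2% and 25.6% in the knockout tumors, and the groups overlapped. Of the 19 genes, 17 had a higher mean in the knockout tumors.

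No beta variable gene stood out in the same way in every tumor. Trbv13-2 (41121396 to 41121832), which had the highest mean count of the 19, had 7.46, 6.12 and 6.15 normalized counts in the WT tumors, against 9.37, 6.84 and 30.2 in the knockout tumors, so its high mean rests on knockout tumor 3. Its log2 fold change was 0.85 with a standard error of 0.75 (adjusted p = 0.905 from limma). Trbv19 had 0.939, 11.3 and 13.3 against 7.52, 11.8 and 9.88 (log2 fold change 0.60), and it was almost absent from WT tumor 1. Trbv3 had 5.61, 4.11 and 2.04 against 4.70, 10.8 and 19.9 (log2 fold change 1.26, standard error 0.77). Trbv17, the single beta variable gene whose groups did not overlap, had 0, 1.02 and 1.02 against 5.61, 8.80 and 1.11, where knockout tumor 3 differed from WT tumors 2 and 3 by less than 1 read (log2 fold change 1.69, standard error 0.85, adjusted p = 0.887 from limma). The genes named next were chosen after their values were seen. Trbv14 had 0.931, 0 and 2.04 in the WT tumors, against 0.933, 14.6 and 22.2 in the knockout tumors, which gave the highest log2 fold change of the receptor genes, 2.30, with a standard error of 1.06 (adjusted p = 0.881 from limma). In the other direction, Trbv12-2 had 0.935, 15.3 and 5.11 against 1.88, 0.980 and 3.34 (log2 fold change -0.99), and Trbv29 had 15.9, 1.02 and 5.12 against 6.56, 0.979 and 5.59 (log2 fold change -0.36). For each of these, 1 or 2 tumors carried most of the reads.

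Trbv13-2 and its relatives Trbv13-1 (41116007 to 41116468) and Trbv13-3 (41130147 to 41130585) form a small family on the plus strand. Their last 75 coding bases, which run into the junction that T cells join to a diversity segment, are shown because reads of the family are told apart by such single-base differences. Capitals mark the 18 positions at which the 3 are not all alike.
Trbv13-1: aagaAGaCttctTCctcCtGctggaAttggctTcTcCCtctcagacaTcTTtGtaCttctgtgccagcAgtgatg
Trbv13-2: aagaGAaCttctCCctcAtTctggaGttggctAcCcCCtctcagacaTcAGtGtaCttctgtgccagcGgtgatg
Trbv13-3: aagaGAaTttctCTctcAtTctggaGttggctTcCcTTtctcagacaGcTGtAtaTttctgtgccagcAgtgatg
Even so, Trbv13-2 shared 34 of its 310 words of 31 bases with other annotated T cell receptor genes. Of the 19 beta variable genes, 14 shared none, so most beta variable reads can be placed among the receptor genes. Trbv13-1, like Trbv13-2, was highest in knockout tumor 3, and Trbv13-3 in knockout tumor 2. Trbv13-1 had 0.980, 7.50 and 4.30 normalized counts in the WT tumors, against 1.97, 7.19 and 16.0 in the knockout tumors, while Trbv13-3 had 2.80, 7.14 and 5.12 against 7.50, 12.7 and 6.72. These 2 were also named after their values were seen.

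Usage of the beta variable genes differed from tumor to tumor. Of the 19 genes, 17, 13 and 16 were above 0 in WT tumors 1 to 3, against 19, 18 and 18 in knockout tumors 1 to 3. The gene with most counts was Trbv29 in WT tumor 1 (17.9% of the beta variable counts), Trbv12-2 in WT tumor 2 (21.5%) and Trbv19 in WT tumor 3 (16.4%). In the knockout tumors it was Trbv13-2 in tumor 1 (10.5%), Trbv14 in tumor 2 (10.9%) and Trbv13-2 in tumor 3 (15.4%), so the leading gene was shared only by knockout tumors 1 and 3. The effective number of beta variable genes, which is the number of equally used genes that would give the same evenness, was 10.1, 8.29 and 11.8 in the WT tumors, against 15.2, 14.1 and 12.2 in the knockout tumors. The WT tumors, with their lower values, also had 69 to 94 beta variable reads against 94 to 181, and the part of this depth in the evenness was not tested. Between tumors, Spearman's rho of the 19 shares ranged from -0.238 to 0.327 over the 15 pairs, with a median of 0.133, given as a description over 19 genes that share a library within each tumor.

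**Figure D5:**
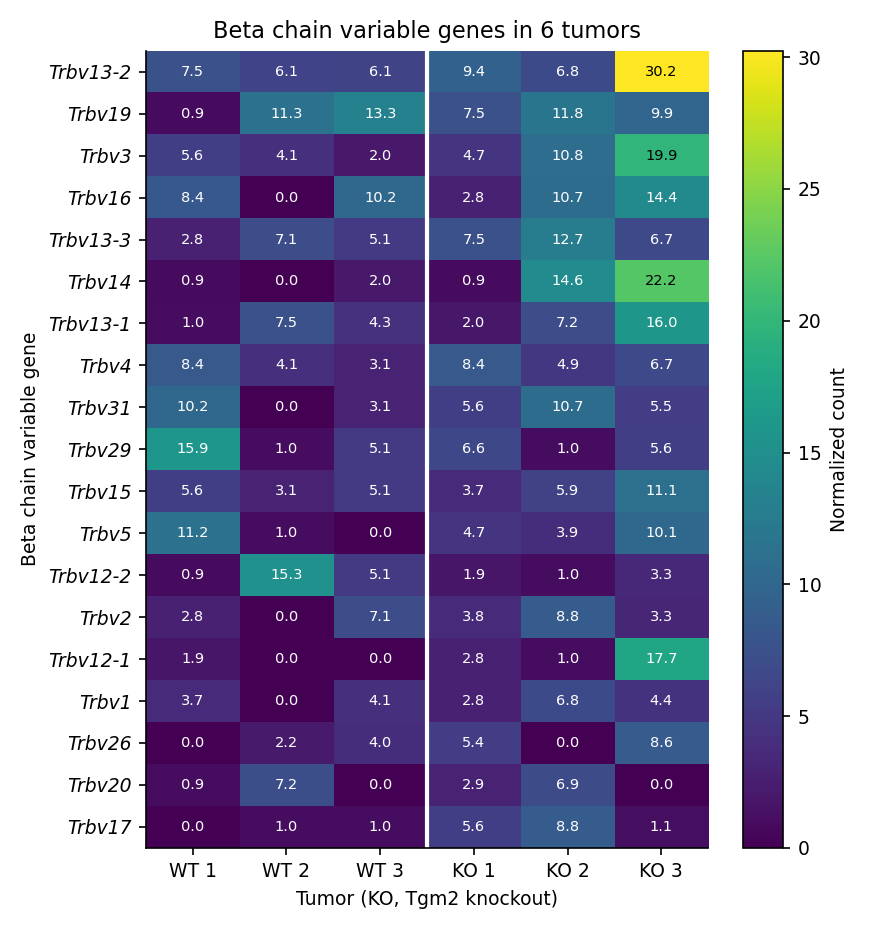
Normalized counts of the 19 beta chain variable genes (rows, by decreasing mean) in each tumor (columns, KO for Tgm2 knockout), with the color scale from 0 to 30.2. High values were scattered over different genes in different tumors, such as Trbv29 in WT tumor 1, Trbv12-2 in WT tumor 2 and Trbv13-2 in knockout tumor 3.

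The alpha variable genes lie on chromosome 14 in a locus that is partly triplicated in C57BL/6 mice, and copies from the repeats carry a d or an n in their names. Trav14d-1 (52855614 to 52856166, plus strand) and Trav14n-1 (53166626 to 53167178, plus strand) had identical transcripts of 415 bases, as had 2 further couples among the 9 alpha variable genes, Trav4d-4 with Trav4n-4 and Trav5d-4 with Trav5n-4. The last 120 coding bases of Trav14d-1 and Trav14n-1 are shown as the clearest case, with no capitals because no position differs.
Trav14d-1: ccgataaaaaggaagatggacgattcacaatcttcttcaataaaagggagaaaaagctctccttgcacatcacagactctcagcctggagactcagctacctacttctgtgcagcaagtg
Trav14n-1: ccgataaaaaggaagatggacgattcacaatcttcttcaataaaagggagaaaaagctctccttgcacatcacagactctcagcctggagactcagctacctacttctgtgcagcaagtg
The deposited values of each couple were identical in all 6 tumors. Reads from either copy cannot be told apart, and each couple is 1 measurement divided over 2 genes.

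Trav14d-1, like Trav14n-1, had 0, 1.31 and 0 normalized counts in the WT tumors, against 3.45, 3.61 and 12.2 in the knockout tumors, so the groups did not overlap. Its log2 fold change was 2.29 with a standard error of 0.81, and it was past the fold limit at an unadjusted p of 0.0211 but not after adjustment (adjusted p = 0.781 from limma). Trav6-3 (53428711 to 53430377) had 0, 0 and 0.822 against 4.59, 1.20 and 4.48 (log2 fold change 1.74, standard error 0.77, adjusted p = 0.874 from limma). It passed the filter on low values through the knockout tumors alone. Trav6-3 shared 325 of its 370 words of 31 bases with its d copy. Trav4-4-dv10, a segment that can be joined in the alpha or the delta chain and the single alpha variable entry with the highest mean count (4.49, where Trav14d-1 and Trav14n-1 had 3.44 each), had 11.1, 0 and 1.01 against 0, 12.6 and 2.21, with 1 high tumor in each group (log2 fold change 0.28, standard error 1.25). Summed, the 9 alpha variable genes came to 17.7, 9.81 and 5.97 normalized counts in the WT tumors, against 17.2, 40.8 and 40.1 in the knockout tumors (19, 9 and 6 reads against 18, 42 and 37). The sum was higher in knockout tumors 2 and 3 than in every other tumor, while tumor 1 of each group differed by less than counting error. The variable segments Trav1 and Trav11 and the joining segments Traj18 and Traj33, which mark the invariant receptors of MAIT and NKT cells, were not analysed here.

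The gamma variable genes were the one class whose sum was lower in the knockout tumors. Trgv2 (chromosome 13, 19336573 to 19337167, minus strand), which is joined to the Trgc2 cluster, had 9.37, 24.7 and 11.2 normalized counts in the WT tumors, against 9.40, 2.94 and 7.71 in the knockout tumors. WT tumor 1 and knockout tumor 1 were nearly equal, and the log2 fold change of -1.06 had a standard error of 0.74 (adjusted p = 0.891 from limma). The sum of Trgv2 and Trgv7 was 12.2, 24.7 and 13.3 against 11.3, 5.89 and 7.71, without overlap (log2 ratio of the means -1.01, and -0.62 without WT tumor 2). In reads the sums were 13, 24 and 13 against 12, 6 and 7, and the exact Poisson 95% intervals of WT tumor 1 (6.92 to 22.2) and knockout tumor 3 (2.81 to 14.4) overlapped. The gamma constant genes had the opposite sign (log2 ratio of means 0.43), and only 2 of the 7 gamma variable genes of the annotation were in the table. Trgv2 also shared 93 of its 461 words of 31 bases with other annotated T cell receptor genes, chiefly Tcrg-V1.

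Of the delta variable genes, Trdv4 had 11.2, 13.4 and 3.06 normalized counts in the WT tumors, against 6.58, 8.83 and 11.1 in the knockout tumors (log2 fold change 0.11, standard error 0.75), and the groups overlapped fully. Trdv5 (chromosome 14, 54148662 to 54149294, minus strand) was at 0 in the table for each of the 3 WT tumors, with 0.933, 8.76 and 4.40 for the knockout tumors. It did not pass the filter and was not tested. Trdv5 lies on the opposite strand at the 3′ end of Trdc, the transcripts share 177 of the 408 words of 31 bases in Trdv5, and the strand setting of the libraries is not given in the sources used here, so reads of Trdv5 and Trdc cannot be told apart there. Trdc was 49.2, 56.3 and 13.2 in the WT tumors, where Trdv5 was at 0, and 20.9, 61.8 and 76.3 in the knockout tumors, and the part of Trdc reads in the Trdv5 values was not tested.

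The other genes of the receptor pathway had mostly positive fold changes. Of 32 genes of the CD3 complex, the coreceptors and proximal signaling, 0 passed the adjusted limits, 3 were higher and 0 lower at the unadjusted limits (2.5% and 1.55% of all genes tested), and the groups did not overlap for 9, all higher in knockout tumors (5.18% of all genes tested). Their median log2 fold change was 0.70, and 31 of 32 were above 0, where 9309 of all 19667 genes tested were. The subunits Cd3g (log2 fold change 0.94), Cd3e (1.03), Cd247 (0.71) and Cd3d (0.48) had standard errors of 0.40, 0.46, 0.39 and 0.38. The 3 past the unadjusted limits were Cd4, the coreceptor of helper T cells, Cd28, a costimulatory receptor, and Icos, another of the same family, with log2 fold changes of 1.49, 1.65 and 1.40 and adjusted p of 0.682, 0.751 and 0.819 from limma. Cd28 and Icos were named after their values were seen.

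Cd4 had 361, 138 and 160 normalized counts in the WT tumors, against 449, 441 and 893 in the knockout tumors, where the groups did not overlap. The coreceptor of cytotoxic T cells, Cd8a, had 153, 110 and 114 against 123, 163 and 214 (log2 fold change 0.39, standard error 0.39), and its partner Cd8b1 had 77.5, 43.7 and 26.4 against 76.7, 91.2 and 143 (log2 fold change 1.14, standard error 0.56). Ratios of Cd4 to the CD8 genes were computed after the values were seen. Cd4 over Cd8a was 2.36, 1.25 and 1.41 in the WT tumors, against 3.66, 2.71 and 4.17 in the knockout tumors, without overlap, whereas Cd4 over Cd8b1 was 4.66, 3.15 and 6.06 against 5.85, 4.83 and 6.27, and the groups overlapped. Cd4 is also transcribed by some dendritic cells. Of the 13 genes of receptor gene transcription and assembly, 0 were past either limit. Ptcra, which encodes the partner of the beta chain in developing thymocytes, had 3.78, 8.33 and 1.02 against 0, 2.95 and 0 (log2 fold change -1.50, standard error 0.93), and Rag2, a subunit of the recombinase that joins the segments, had 5.68, 0 and 19.2 against 3.79, 0 and 2.15 (log2 fold change -1.05, standard error 1.19). Both rested on few reads, with at most 8.33 normalized counts for Ptcra and 19.2 for Rag2, and Rag1 was not analysed here.

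Markers of other cells moved across the same tumors. The leukocyte list (12 of 12 genes above 1 in all tumors, Laptm5 the most abundant) summed to 33478, 25126 and 19013 normalized counts in the WT tumors, against 23406, 42143 and 45611 in the knockout tumors, and the ratio of the receptor constant sum to Ptprc, the leukocyte antigen CD45, was 43.1%, 36.6% and 32.8%, against 49.9%, 35.8% and 51.9%. The list of natural killer and innate lymphoid cells (17 of 17 above 1, Gata3 the most abundant), which can carry transcripts of unjoined receptor loci, summed to 1543, 1289 and 1043 against 1365, 2160 and 2662, with 2 of 17 higher at the unadjusted limits (2.5% of all genes tested). The B cell list (10 of 10 above 1, Cd79a the most abundant) summed to 797, 496 and 639 against 1551, 1447 and 2266, without overlap, with 1 of its 10 genes higher at the adjusted limits (0.102% of all genes tested) and 4 at the unadjusted limits (2.5%). White adipocyte markers (12 of 12 above 1, Lpl the most abundant) summed to 43340, 56359 and 32961 against 46880, 167327 and 98461, with 1 of 12 higher at the adjusted limits and 8 at the unadjusted limits. Markers of the epithelial tumor cells (9 of 9 above 1, Wt1 the most abundant) were present in every tumor and summed to 71113, 83832 and 82497 against 64110, 60878 and 69218, lower without overlap, with 0 of 9 past the unadjusted limits and 2 of 9 without overlap, both lower (5.33% of all genes tested). Of these 9 genes 7 had a log2 fold change below 0 and 2 above 0. The mean log2 value over this list was 11.71, 12.37 and 12.95 in the WT tumors, against 12.31, 12.15 and 11.59 in the knockout tumors. On that measure the groups overlapped, so the separation of the epithelial sums depends on the measure used. The leukocyte, natural killer and receptor constant sums were each highest in knockout tumor 3. Beyond the adipocyte covariate given above, which cannot be separated from genotype, the part of these cells in the receptor values was not tested.

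Lists for gamma delta T cells, invariant T cells, macrophages and lymphoid tissue stroma were read in the same way. Of 7 tested genes of the gamma delta list, which are shared with other cells, 1 was higher at the unadjusted limits (2.5% of all genes tested), and of 4 genes of the invariant list 2 were. Zbtb16, a transcription factor of innate-like T cells with a log2 fold change of 1.85, is in both lists and was counted in each. The invariant list summed to 683, 790 and 1127 normalized counts in the WT tumors, against 1413, 1652 and 1206 in the knockout tumors. These sums did not overlap, whereas those of the gamma delta list did. Genes of the invariant list are likewise shared with other cells, so its sum is not a measure of invariant T cells alone. Its most abundant gene, Mr1, had 436, 467 and 452 against 678, 525 and 453, and the groups overlapped. Mr1 and Cd1d1 encode molecules that present antigen to these T cells. The macrophage list, led by Lyz2, summed to 89336, 67463 and 45151 normalized counts in the WT tumors, against 43747, 137567 and 98230 in the knockout tumors, with 0 of 11 past the unadjusted limits. The stroma list had 3 of 10 higher at the unadjusted limits and summed to 135827, 98520 and 66916 against 70470, 98227 and 84563. The stroma sum was carried by Clu, and the mean log2 value over the list was 9.16, 8.50 and 8.46 in the WT tumors, against 9.33, 9.35 and 9.37 in the knockout tumors, without overlap. Of the 10 genes, 5 had a log2 fold change above 0 and 5 below 0. Fcrla, a gene of this list that B cells transcribe, had 33.8, 25.8 and 41.5 against 219, 213 and 313. The mean is thus not a measure of stroma alone, and the part of Fcrla in its separation was not tested. The part of these cells in the receptor values was not tested either.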

How the data were processed

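RNA from 3 WT and 3 Tgm2 knockout tumors was polyA enriched and sequenced in paired reads of 100 bases. Transcripts were quantified by the authors with kallisto (0.46.2 on GRCm38, per the submitters' processing notes), summed to genes, filtered for low expression and normalized with DESeq2 size factors. The deposited table is named TPM, but its column sums differ and its low values are steps of single reads, so it was read as a depth-normalized signal (normalized counts); of the low values of genes with 1 transcript, 95.5% to 99.1% lay within 0.1 reads of a whole number. Because the values are not whole counts, the count test of the study was not used. Values were taken as log2(value + 1), which understates changes of low genes, and the 19667 genes with at least 1 in at least 3 tumors were fitted with limma 3.58.1 in R 4.3.3 (two-sided, variance trend, Benjamini-Hochberg adjustment over all genes; limits adjusted p 0.05 and absolute log2 fold change 1).

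All 39 receptor genes were matched to GENCODE M21 on GRCm38, 4 of them through synonyms. Words of 31 bases, the kallisto default, were compared over the annotated transcripts of T cell receptor genes only. Words shared with other genes were not looked for. The length the authors used is not given in the sources used here. Named genes were every constant gene, the most abundant of each variable class, those without overlap between groups and selected pathway genes. The receptor genes and marker lists were chosen with earlier results of these data known. The fit was tested on simulated data with large changes planted in well-expressed genes only. That test cannot tell how the fit treats small changes or low genes. Alternatives were other pseudocounts, filters and scalings, array weights, no trend, an adipocyte covariate, a replicate block and leaving out each tumor.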

Additional observations from a re-analysis of the deposited data

How the results depend on the processing

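The count of receptor genes past the adjusted limits was 0 in the main setting and in all 19 alternatives. The count past the unadjusted limits, 2, became 0 with a pseudocount of 5 and with the adipocyte covariate, 1 with a filter of at least 10 and with identical couples summed (chosen after seeing the data), 4 with quantile normalization and with array weights, and 5 without the variance trend; leaving out 1 tumor gave 1 (without WT tumor 3 or knockout tumor 3) to 5 (without knockout tumor 1). For the pathway genes, the count of 3 became 1 with the adipocyte covariate and 1 (without WT tumor 2) to 9 (without WT tumor 1) on leaving out a tumor, with 5 without knockout tumor 1. The median log2 fold change of the receptor genes, 0.74, became 0.15 with the adipocyte covariate. In the same fit the median over all genes went from -0.03 to 0.08. The mean log2 value of the adipocyte markers did not overlap between the groups, so this covariate cannot be separated from genotype. Relative to the CD3 sum, the log2 ratios of the alpha, beta and gamma constant sums became -0.070, 0.035 and -0.38.

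No receptor gene whose sign turned was past a limit. With the adipocyte covariate the log2 fold changes were -1.69 for Trdc, -0.30 for Trgc1, -1.27 for Trgc2, -0.25 for Trgc4, -2.20 for Trav4-4-dv10, -0.097 for Trbv19, -0.013 for Trbv3, -0.93 for Trdv4, -0.15 for Cd3d and 2.64 for Rag2. With array weights Trdv4 had -0.082. On leaving out a tumor, the log2 fold changes reached 1.02 for Trdc, 0.41 for Trgc1, 0.94 for Trgc2, 1.31 for Trav4-4-dv10, 1.11 for Trbv19 and 0.45 for Trdv4 at their highest. Their lowest values turned negative, for Trdc (-0.18) and Trgc1 (-0.0035) without WT tumor 3, for Trgc2 (-0.039) without knockout tumor 3, for Trav4-4-dv10 without WT tumor 2 (-0.49) or knockout tumor 2 (-0.69), for Trbv19 without WT tumor 1 (-0.33), and for Trdv4 without WT tumor 3 (-0.46) or knockout tumor 3 (-0.050). The cause of these changes was not tested.

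Deviations from the group means correlated between same-numbered tumors with r of -0.20, 0.28 and -0.31. Between differently numbered tumors r ranged from -0.23 to 0.36. Deviations from a mean of 3 tumors depend on one another, so these values cannot decide whether the numbers pair the tumors. With a replicate block 0 receptor genes passed the adjusted limits, 2 the unadjusted limits, and 2 pathway genes the unadjusted limits, and the count over all genes at the adjusted limits went from 20 to 5. Over the other alternatives it ranged from 0, with the adipocyte covariate, to 21, with array weights. Sums of joining genes could not be given. Depth limits the variable genes, whose mean counts over the tumors were 1.62 to 11.0.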
